A study of Mus musculus with 6 samples.

Results

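A set of 10 genes of resident, iron-recycling macrophages were followed in regulatory T cell preparations from Mbd2 knockout and wild-type mice. They were C1qa, C1qb and C1qc, Cfp, Vsig4, Cd163, Hmox1, Slc40a1, Vcam1 and Axl, found by gene symbol in the platform's annotation, and the list was drawn up with earlier results of these data known. The 10 genes were measured by 16 of the 22626 non-control probe sets, out of 12393 genes with a probe set of their own. The tested cells were CD4+CD25+ regulatory T cells (Treg) from 3 MBD2-/- samples, and the controls were the same kind of cells from 3 wild-type samples. All mice had the Balb/c background, the cells were separated magnetically, and the series' design text calls the samples independent. Neither sex, age nor the purity of the separated cells is stated in the labels. Mbd2 is a protein that binds methylated DNA, and the title of the study concerns its part in demethylating Foxp3, the gene of the lineage-defining Treg transcription factor.

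Macrophages of the spleen, liver and bone marrow engulf aged red cells and apoptotic cells. Haem from the red cells is opened by haem oxygenase (Hmox1), and the iron leaves through ferroportin (Slc40a1), while Cd163 takes up haemoglobin bound to haptoglobin. The same cells are a main source of C1q, which starts the classical complement pathway and is built from A, B and C chains encoded by C1qa, C1qb and C1qc. In bulk RNA, a change in the number of cells of a type cannot be told apart from a change in their RNA per cell.

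The array medians of the deposited RMA log2 values ran from 5.56 to 5.78. Another distribution was seen in wild-type replicate 3, with Pearson correlations across probe sets of 0.749 to 0.767 with the other arrays, against 0.956 to 0.997 for the pairs without it. Its dim genes read higher and its bright genes lower. Among the 4741 genes with a mean under 5.18 in wild-type replicates 1 and 2, its value exceeded that mean by a median of 0.73. Among the other 7652 genes the median was -0.87. The brightest probe set of each of the 10 genes is therefore described in fits of all 6 arrays and of the 5 arrays without that sample. The brighter Mbd2 probe set read 5.93, 5.71 and 6.14 in knockout replicates 1, 2 and 3, against 8.80, 8.66 and 6.93 in wild-type replicates 1, 2 and 3. The knockout arrays lay below all wild-type arrays, with a limma adjusted p = 0.548 for 6 arrays and 0.0019 for 5. The dimmer Mbd2 probe set read 4.57, 4.68 and 4.64 in knockout, against 6.70, 6.92 and 6.38 in wild type. Its limma adjusted p was 0.062 for 6 arrays and 0.0017 for 5. The labels do not say which part of Mbd2 was deleted, and a probe set outside it would check nothing.

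Knockout preparations read higher than wild-type preparations for 9 of the 10 genes with no overlap between the groups, Vsig4 being the exception. Such separation was found for 7.91% of all 12393 genes with 6 arrays and for 17.4% with 5. None of the 10 genes, however, passed an adjusted p of 0.05 in limma with 6 arrays or with 5. Knockout replicate 2 was the highest array for 9 of them. The background share of genes called higher without a filter on dim genes was 0.0403% with 6 arrays and 0.533% with 5. At an unadjusted p under 0.05, 8 of the 10 genes passed in each fit without a filter, the exceptions being Axl and Vsig4, against 3.08% and 7.12% of all genes called higher. The median log2 difference of the 10 genes, knockout minus wild type, was 1.66 with 6 arrays and 1.90 with 5, and that of all genes was -0.02 and -0.01. A filter on the mean of all 6 arrays kept 8 of the 10 genes. Of these, 5 had a mean under its cutoff of 5.18 in wild-type replicates 1 and 2 and so were kept through their higher arrays. Cd163 and Vsig4 did not pass it and are given from the fit without it.

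**Figure D1:**
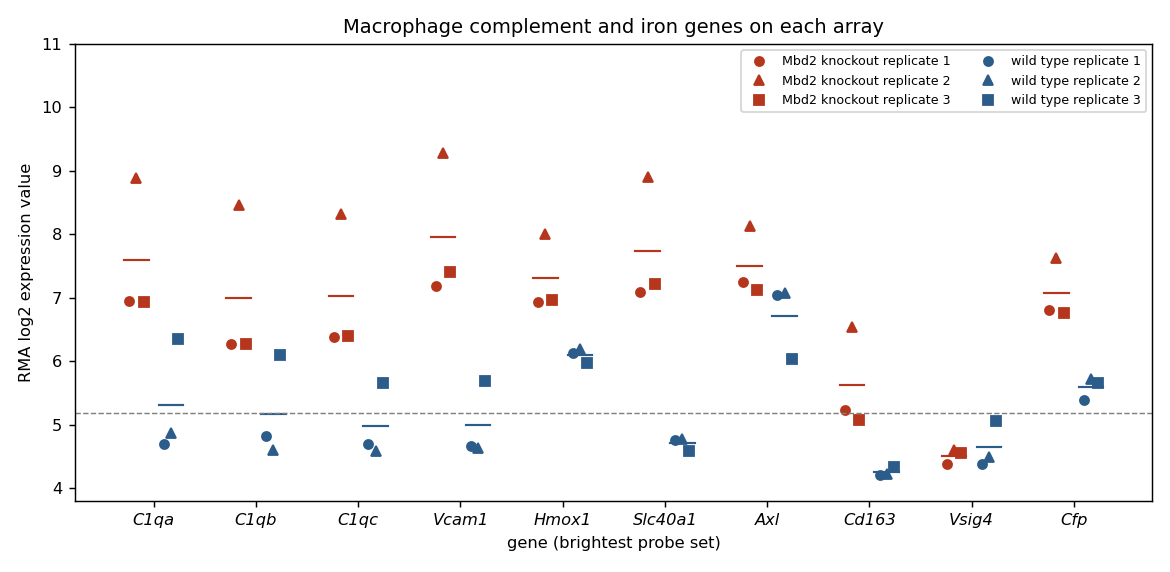
RMA log2 value of each gene's brightest probe set on each array, with Mbd2 knockout arrays in red to the left and wild-type arrays in blue to the right, short bars for group means and a dashed line at 5.18, the cutoff of the filter on dim probe sets. Knockout replicate 2 (red triangles) is the highest array for 9 of the 10 genes, and wild-type replicate 3 (blue squares) is the highest wild-type array for 6.

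The genes of the C1q chains come first. C1qa read 6.95, 8.89 and 6.93 in knockout replicates 1, 2 and 3, against 4.70, 4.87 and 6.35 in wild-type replicates 1, 2 and 3. C1qb, on the brightest of its 3 probe sets, read 6.27, 8.47 and 6.26 in knockout, against 4.82, 4.59 and 6.09 in wild type. C1qc read 6.38, 8.32 and 6.40 in knockout, against 4.69, 4.58 and 5.66 in wild type. In each case knockout replicate 2 was highest, knockout replicates 1 and 3 were nearly equal, and wild-type replicate 3 lay closer to them than to the other wild-type arrays. Its excess over the mean of wild-type replicates 1 and 2 was 1.56, 1.39 and 1.02 for C1qa, C1qb and C1qc. Of all genes with that mean under 5.18, 92.2% read higher in wild-type replicate 3, with a 90th percentile of 1.78.

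The log2 difference of C1qa was 2.28 with 6 arrays (95% interval 0.63 to 3.93, limma adjusted p = 0.829) and 2.80 with 5 (adjusted p = 0.0844). C1qb differed by 1.83 with 6 arrays (adjusted p = 0.829) and 2.29 with 5 (adjusted p = 0.145). C1qc differed by 2.06 with 6 arrays (adjusted p = 0.803) and 2.40 with 5 (adjusted p = 0.108). Under the 5-array fit these stand for differences of at least 5.29-fold, 3.52-fold and 3.60-fold, since both wild-type arrays were raised to 5.18 where they read below it. The chains followed each other closely, with Pearson correlations of 0.986 to 0.992 over the 6 arrays. That is a description of 6 points that fall into 2 genotypes and share the same RNA.

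The other C1qb probe sets, whose names mark probes that can match further transcripts, gave smaller values. One read 5.59, 7.12 and 6.07 in knockout, against 4.96, 4.99 and 4.93 in wild type. The dimmest read 4.91, 6.95 and 5.26 in knockout, against 4.18, 4.25 and 4.56 in wild type. On both, wild-type replicate 3 stayed under every knockout array. The differences with 6 arrays were 1.30 and 1.38 (adjusted p = 0.829 and 0.817).

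C1qb, C1qc and C1qa lie next to each other on chromosome 4 in the RefSeq gene order, with no other protein-coding gene between them. The neighbours on the array, taken by position after the C1q values were known, were Epha8, Wnt4 and Tex46. Epha8, adjacent to C1qa, read 4.82, 5.39 and 4.68 in knockout, against 4.74, 4.82 and 5.39 in wild type, so the groups overlapped. Wnt4 differed by 0.07 with 5 arrays and -0.27 with 6, and Tex46 by -0.09 and -0.21.

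Because the C1q genes moved together across the arrays, the promoters of C1qb and C1qc are shown, with that of Cfp, a complement gene on another chromosome. They run from 250 bases before to 50 bases after the annotated start, 5′ to 3′ on the gene's strand, from RefSeq on build GRCm38.p6. C1qb is at chr4:136886151-136886450, C1qc at chr4:136892865-136893164 and Cfp at chrX:20931506-20931805, all on the minus strand. Capitals mark matches on either strand to GAGGAA, the core bound by the myeloid factor PU.1, and to TGCTGA, part of the recognition element of Maf factors.
C1qb: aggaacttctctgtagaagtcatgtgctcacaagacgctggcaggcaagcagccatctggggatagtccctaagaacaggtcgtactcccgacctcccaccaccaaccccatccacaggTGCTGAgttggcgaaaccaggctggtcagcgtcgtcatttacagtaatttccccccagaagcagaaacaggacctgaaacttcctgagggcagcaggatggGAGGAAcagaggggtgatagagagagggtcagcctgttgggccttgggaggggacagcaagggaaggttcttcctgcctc
C1qc: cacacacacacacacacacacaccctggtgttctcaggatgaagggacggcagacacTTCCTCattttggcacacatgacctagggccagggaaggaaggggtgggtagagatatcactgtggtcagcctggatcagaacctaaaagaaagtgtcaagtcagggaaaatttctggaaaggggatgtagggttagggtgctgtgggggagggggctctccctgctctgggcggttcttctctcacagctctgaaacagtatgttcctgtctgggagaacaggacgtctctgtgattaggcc
Cfp: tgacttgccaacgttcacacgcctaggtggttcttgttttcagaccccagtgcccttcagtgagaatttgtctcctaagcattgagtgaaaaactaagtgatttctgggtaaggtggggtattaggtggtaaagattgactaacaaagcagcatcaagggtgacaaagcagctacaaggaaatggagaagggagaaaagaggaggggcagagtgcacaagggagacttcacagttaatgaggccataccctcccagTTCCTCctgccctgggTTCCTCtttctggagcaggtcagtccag
GAGGAA begins 30 bases before the start of C1qb on the gene's strand. In C1qc it stands 193 bases before the start, and in Cfp 6 and 22 bases after it, in each case on the opposite strand. TGCTGA occurs 131 bases before the start of C1qb. C1qa, Vcam1, Hmox1 and Slc40a1, among them the genes with the largest differences, had no promoter sequence available and were not searched. Of the 6 genes of the list with a promoter in the table, 5 held GAGGAA, against 28.3% of all 32851 promoters, and those 5 include Axl and Vsig4. TGCTGA was found in 2 of the 6, C1qb and Vsig4, against 19.5% of all. The AP-1 motif TGANTCA, the C/EBP motif TTGCNNAA and the E box CACGTG were found in 0 of the 6, against 7.81%, 10.8% and 7.15% of all promoters. No match of one motif overlapped another in these windows.

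Complement outside C1q was represented by Cfp and Vsig4. Cfp encodes properdin, which stabilises the alternative pathway's C3 convertase and is made by monocytes, neutrophils and macrophages. It read 6.81, 7.63 and 6.76 in knockout replicates 1, 2 and 3, against 5.39, 5.72 and 5.65 in wild-type replicates 1, 2 and 3. Here wild-type replicate 3 lay between the other wild-type arrays. Cfp averaged 7.07 ± 0.48 in knockout and 5.59 ± 0.18 in wild type (SD, n = 3 each). The difference was 1.48 with 6 arrays (adjusted p = 0.403), or 2.79-fold, and 1.51 with 5 (adjusted p = 0.0639).

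Vsig4 encodes a receptor for C3 fragments on Kupffer cells and other resident macrophages. It read 4.38, 4.60 and 4.56 in knockout, against 4.38, 4.49 and 5.07 in wild type. All 6 values lay under 5.18 and the groups overlapped. The interval of the difference was -0.68 to 0.41 with 6 arrays and -0.16 to 0.31 with 5, and its sign changed from one fit to the other.

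Of Slc40a1, Hmox1 and Cd163, the iron and haem genes among the 10, Slc40a1 showed the largest difference. Its brightest probe set read 7.09, 8.91 and 7.21 in knockout replicates 1, 2 and 3, against 4.75, 4.77 and 4.58 in wild-type replicates 1, 2 and 3. Every knockout array was more than 2 log2 units above every wild-type array, and here wild-type replicate 3 was the lowest array of all. The difference was 3.03 with 6 arrays (95% interval 1.82 to 4.25, adjusted p = 0.226) and 2.98 with 5 (adjusted p = 0.0616), at least 5.87-fold in both. The second, dimmer Slc40a1 probe set read 5.61, 6.86 and 5.45 in knockout, against 4.52, 4.65 and 5.73 in wild type. On it wild-type replicate 3 exceeded knockout replicates 1 and 3, and the difference was 1.38 with 5 arrays, while its interval with 6 was -0.20 to 2.21.

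Hmox1 read 6.94, 8.01 and 6.97 in knockout, against 6.13, 6.19 and 5.98 in wild type. It averaged 7.31 ± 0.61 in knockout and 6.10 ± 0.11 in wild type (SD, n = 3 each), a 2.31-fold difference with 6 arrays (log2 1.21, adjusted p = 0.754) and 2.22-fold with 5 (adjusted p = 0.14). Cd163 read 5.24, 6.55 and 5.07 in knockout, against 4.21, 4.23 and 4.33 in wild type. Only knockout replicates 1 and 2 reached 5.18, and the difference was 1.36 with 6 arrays (adjusted p = 0.817) and 1.40 with 5 (adjusted p = 0.198). As with Slc40a1, wild-type replicate 3 lay near the other wild-type arrays for both genes.

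Vcam1 encodes an adhesion molecule of inflamed endothelium and stroma that is also carried by iron-recycling macrophages of spleen and bone marrow. Its brightest probe set read 7.19, 9.29 and 7.40 in knockout replicates 1, 2 and 3, against 4.66, 4.63 and 5.69 in wild-type replicates 1, 2 and 3. The difference was 2.97 with 6 arrays (adjusted p = 0.433) and 3.32 with 5 (95% interval 1.80 to 4.83, adjusted p = 0.063), at least 6.10-fold and 6.86-fold. A second probe set read 6.32, 7.87 and 6.19 in knockout, against 5.49, 5.42 and 5.90 in wild type, a difference of 1.19 with 6 arrays. The dimmest read 4.88, 5.96 and 5.19 in knockout, against 4.99, 5.06 and 5.71 in wild type. On this last one the groups overlapped and the difference was 0.09, so the Vcam1 probe sets disagree.

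Axl encodes a receptor tyrosine kinase that binds Gas6 on apoptotic cells. It read 7.25, 8.13 and 7.12 in knockout, against 7.04, 7.07 and 6.03 in wild type. Knockout replicates 1 and 3 lay within 0.21 of wild-type replicates 1 and 2, so the size of the difference rested on knockout replicate 2 and wild-type replicate 3. The difference was 0.79 with 6 arrays (adjusted p = 0.829) and 0.44 with 5 (95% interval -0.30 to 1.19, adjusted p = 0.43). The other Axl probe set read at most 4.20 on every array.

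**Figure D2:**
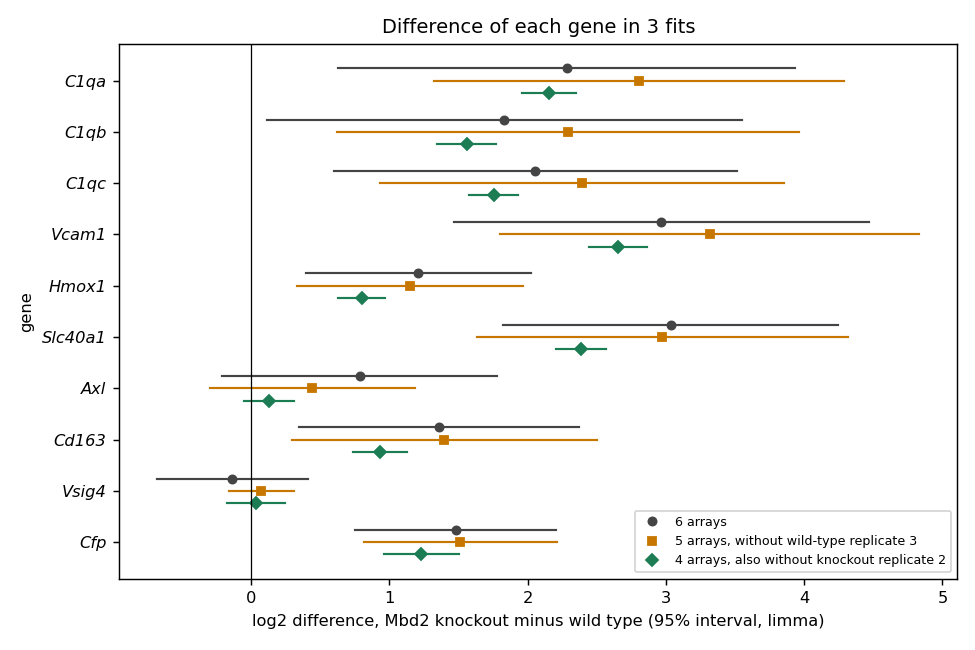
Log2 difference of each gene's brightest probe set, Mbd2 knockout minus wild type, with its 95% interval from limma, for 6 arrays (circles), 5 arrays without wild-type replicate 3 (squares) and 4 arrays also without knockout replicate 2 (diamonds). Intervals narrow where knockout replicate 2 is left out, and those of Axl and Vsig4 include 0 in all 3 fits.

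The knockout arrays differed mostly through knockout replicate 2. It was the highest of the 6 arrays for 9 of the 10 genes, against 13.8% of all genes. It exceeded the mean of knockout replicates 1 and 3 by 1.95 for C1qa, 2.20 for C1qb, 1.92 for C1qc, 1.99 for Vcam1, 1.76 for Slc40a1 and 1.39 for Cd163, all above the 99th percentile over all genes, 1.33. The excess was 1.05 for Hmox1, 0.94 for Axl and 0.84 for Cfp, between that and the 95th percentile of 0.58. Knockout replicates 1 and 3 alone exceeded wild-type replicates 1 and 2 by 2.65 for Vcam1, 2.39 for Slc40a1, 2.15 for C1qa and 1.23 for Cfp.

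Without knockout replicate 2 and wild-type replicate 3 together, 8 of the 10 genes passed the threshold without a filter, against 6.22% of all genes called higher. With the filter, 9.07% of genes were called higher, and of the list Axl alone among the 8 kept did not pass. In the fit without the filter Vcam1 was at 2.65 and Slc40a1 at 2.39 (limma adjusted p = 2.64e-05 and 2.57e-05), Hmox1 at 0.80 (adjusted p = 0.0011) and Cd163 at 0.93 (adjusted p = 0.00107). Axl, at 0.13, and Vsig4, at 0.03, did not pass. This fit compares the arrays that agree best within each genotype, and both omissions were chosen with earlier results of these data known. When knockout replicate 2 was left out and wild-type replicate 3 kept, 0 of the 10 genes passed. With the filter, 0 of all 8190 tested genes passed there, so that count is not particular to the list.

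The companion genes of these pathways that were called were Fcna, Cd93 and Hp, with 5 arrays and not with 6. Each had a mean under the filter's cutoff in wild-type replicates 1 and 2 and so was kept through its higher arrays. In the 5-array fit without the filter, Cd93 and Hp were still called (limma adjusted p = 0.0278 and 0.0263) and Fcna was not. There 0.533% of all genes were called higher. With 6 arrays no gene of the pathway lists passed, where 0.122% of all tested genes were called higher and 0% lower. Of 8 classical and lectin pathway genes on the array, 3 passed the filter and 1 was called higher with 5 arrays, where 0.818% of all genes were called higher and 0.757% lower. It was Fcna, which encodes ficolin A, a lectin of spleen and liver macrophages. Fcna read 7.03, 8.10 and 7.23 in knockout replicates 1, 2 and 3, against 5.35, 5.02 and 6.13 in wild-type replicates 1, 2 and 3, with knockout replicate 2 highest again. It rose by 2.27 with 5 arrays (adjusted p = 0.0424), a call lost without the filter (adjusted p = 0.0516), and was at 1.96 with 6 (adjusted p = 0.433). The lectin pathway proteases Masp1 and Masp2, the next in rank and not called, were at 0.39 and 0.12 with 5 arrays and at 0.00 and -0.15 with 6. Of 7 alternative and terminal pathway genes 2 passed the filter, C6 at 0.46 and C8g at 0.26 with 5 arrays, and neither was called. With 6 arrays both were negative, at -0.09 and -0.25.

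Of 17 complement regulators and receptors, 7 passed the filter and 1 was called higher with 5 arrays. Cd93, a surface glycoprotein once described as a C1q receptor, read 6.26, 6.08 and 6.07 in knockout, against 4.89, 5.17 and 4.78 in wild type. It rose by 1.11 (adjusted p = 0.0239), and was at 1.19 with 6 arrays (adjusted p = 0.286). Unlike for the C1q genes, knockout replicate 2 was not above the other knockout arrays. Itgax, the alpha chain of a receptor for C3 fragments, and Clu, the complement inhibitor clusterin, ranked next at 1.19 and 0.42 with 5 arrays (0.88 and 0.07 with 6) and were not called.

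Of 29 further haem and iron genes, 24 passed the filter, with a median difference of 0.08 with 5 arrays and 0.38 with 6. All tested genes together had medians of -0.06 and 0.16. A single gene was called, Hp, which encodes haptoglobin, the plasma protein that binds free haemoglobin and is also stored in neutrophil granules. Hp read 8.02, 9.20 and 8.11 in knockout, against 4.84, 4.97 and 6.32 in wild type. It rose by 3.54 with 5 arrays (adjusted p = 0.0176) and was at 3.07 with 6 (adjusted p = 0.238). Spic, the haem-induced transcription factor of red pulp macrophages, and Lrp1, a receptor for haem bound to haemopexin, ranked next at 1.54 (adjusted p = 0.113) and 0.83 (adjusted p = 0.149) with 5 arrays and were not called. With 6 arrays they were at 1.31 and 0.50.

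Of 18 genes for the uptake of apoptotic cells, 14 passed the filter and 0 were called in limma with 6 or 5 arrays. Those with the smallest p with 5 arrays were Dock2 at -0.41, Itgav at -0.41 and Stab2 at 0.49. With 6 arrays the sign of Dock2 and Itgav turned, to 0.08 and 0.38, and Stab2 was at 0.25. Among 7 tested adhesion genes around Vcam1, 7 were lower with 5 arrays, with a median of -0.47, and 0 were called. Itga4 and Itgb1, the subunits of the integrin that binds Vcam1, were at -0.56 (adjusted p = 0.0908) and -0.58 (adjusted p = 0.139). Itgb7, another partner of Itga4, was at -0.58 (adjusted p = 0.0616). With 6 arrays Itga4 was at -0.57, Itgb7 at -0.32 and Itgb1, its sign turned, at 0.11. With 6 arrays, 4 of these 7 genes were higher and 3 lower.

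**Figure D3:**
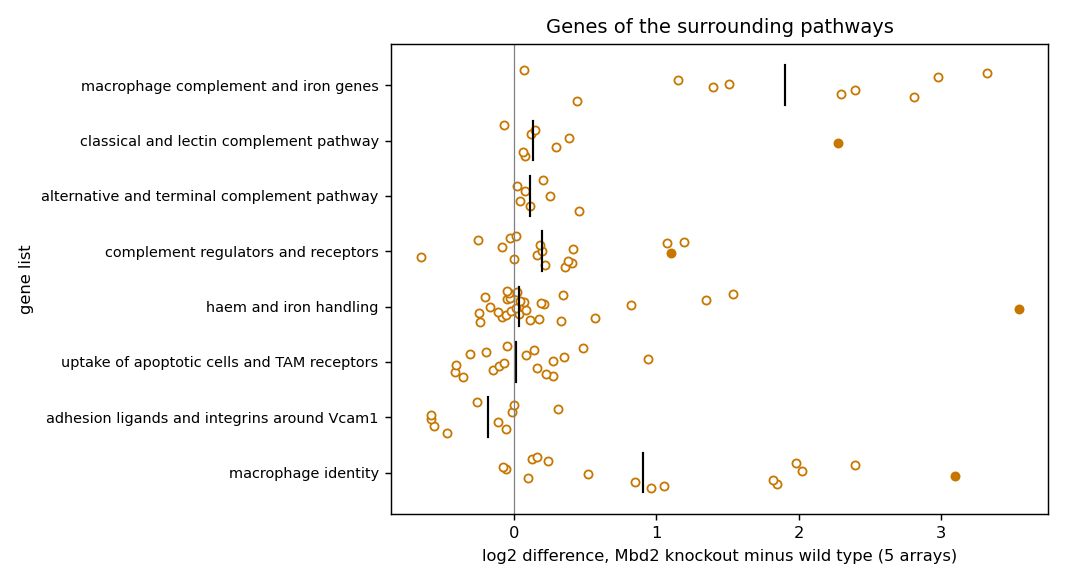
Log2 difference in the 5-array fit, Mbd2 knockout minus wild type, of each gene on the array, by list; filled circles passed an adjusted p of 0.05, open circles did not, and black bars are medians over all genes of a list, including those the filter on dim probe sets left out. The medians are 1.90 for the 10 complement and iron genes of macrophages and 0.91 for the macrophage identity genes, and between -0.18 and 0.20 for the 6 pathway lists.

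The label of resident macrophages was set against 16 further macrophage identity genes on the array, of which 13 passed the filter. With 5 arrays these 13 were all higher in knockout and 1 was called, against 0.818% of all tested genes called higher. Their median was 1.05, while that of all 16 was 0.91. With 6 arrays 10 of the 13 were higher, 0 were called, and the medians were 0.90 and 0.76. The filter can keep genes dim in wild type through their higher knockout arrays, so the direction of the 13 is not independent of it. The called gene was Csf1r, the receptor for the macrophage growth factor M-CSF. It read 8.28, 9.57 and 7.96 in knockout replicates 1, 2 and 3, against 5.45, 5.57 and 5.57 in wild-type replicates 1, 2 and 3, a rise of 3.09 with 5 arrays (adjusted p = 0.0456) that was not called without the filter (adjusted p = 0.0579). Mpeg1, a pore-forming protein of phagocytes, and Lgals3, galectin 3, ranked next at 2.39 and 2.02 (adjusted p = 0.0533 and 0.0609) with 5 arrays, and were at 2.61 and 2.60 with 6. Csf1r was at 3.07 with 6 arrays (adjusted p = 0.14). Singled out after their values were seen, Siglec1, Clec4f, Trem2, Maf and Marco were at 0.13, 0.10, 0.17, -0.05 and -0.07 with 5 arrays, none of them called. With 6 arrays all 5 were negative, between -0.69 and -0.22. The list's summed level, in linear units, was 1603 to 3690 in knockout arrays, against 670.3 to 1029 in wild-type arrays.

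The 8 genes outside the list with the pattern most like the mean of C1qa, C1qb and C1qc were Cebpd, Aif1, Nacc2, Spic, Cd302, Sash1, Apobr and Ckap4, among genes that passed the filter. Their Pearson correlations with it over the 6 arrays ran from 0.990 to 0.997. Spic, for example, read 5.69, 6.80 and 5.45 in knockout replicates 1, 2 and 3, against 4.42, 4.46 and 5.13 in wild-type replicates 1, 2 and 3. Within the list itself the correlation was 0.979 for Vcam1, 0.953 for Cd163, 0.923 for Cfp and 0.907 for both Hmox1 and Slc40a1. Axl and Vsig4, at 0.583 and 0.171, did not follow the C1q pattern. These correlations describe 6 arrays that share the genotype split and the high reading of knockout replicate 2.

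Markers of other cell types moved in the same arrays, and their part in the results above was not tested. The summed level of the 10 genes was 1013, 3105 and 1032 in knockout replicates 1, 2 and 3, against 415.1, 430.5 and 508.1 in wild-type replicates 1, 2 and 3. That of 11 neutrophil markers was 24040, 34650 and 23890 in knockout, against 670.2, 1603 and 741 in wild type, with 7 of 11 called higher with 5 arrays, among them Ngp, Camp and Ltf. Knockout replicate 2 stood at 3.04 times the mean of knockout replicates 1 and 3 for the 10 genes and at 1.45 times for the neutrophil markers. Among wild-type arrays, replicate 2 had the highest neutrophil sum and replicate 3 the highest sum of the 10 genes. Dim genes in general read higher and bright genes lower in wild-type replicate 3, so the sums of that array cannot be compared with those of the other arrays. The sum of 8 B cell markers was 1453 to 2106 in knockout and 539.4 to 967.4 in wild type, with Spib called of 6 tested. That of 8 dendritic cell markers was 2794 to 3915 in knockout, against 2210, 2275 and 1055 in wild-type replicates 1, 2 and 3. Of 6 tested, 1 was called, Cd83, which fell by 1.05 with 5 arrays and was at -0.26 with 6.

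Endothelial, stromal and erythroid sums overlapped between the genotypes over the 6 arrays. The sum of 14 endothelial and stromal markers, cells that can also carry Vcam1 and Axl, was 441.3 to 453.3 in knockout and 441.2 to 971.8 in wild type, the upper end being wild-type replicate 3. Only 3 of the 14 passed the filter, and the summed level of 5 erythroid markers was 180.3 to 198.9 in knockout and 167.4 to 488.3 in wild type. The erythroid overlap came from wild-type replicate 3 alone, since wild-type replicates 1 and 2, at 169.4 and 167.4, lay below every knockout array. T cell and Treg markers summed to 9812, 5976 and 9858 in knockout replicates 1, 2 and 3, against 13690, 13650 and 6374 in wild-type replicates 1, 2 and 3. Of 10 tested, 10 were lower with 5 arrays and 0 were called. Foxp3 read 7.98, 6.62 and 8.17 in knockout, against 8.83, 8.74 and 6.93 in wild type, so the array with the highest macrophage readings had the lowest Foxp3 reading.

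**Figure D4:**
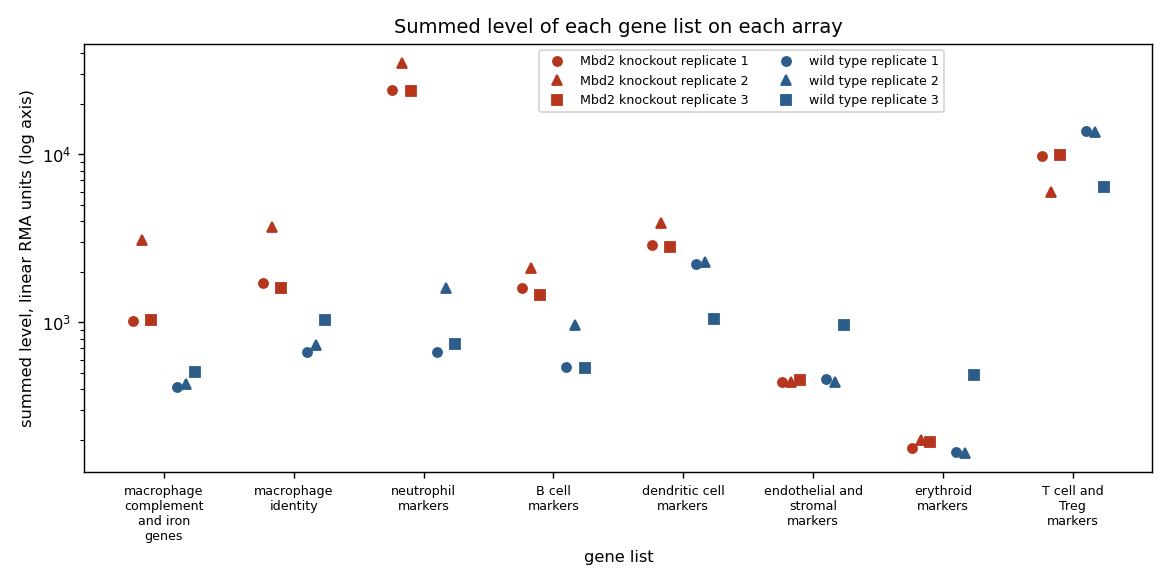
Summed level of each list's genes on each array, in linear RMA units on a log axis, with Mbd2 knockout arrays in red to the left and wild-type arrays in blue to the right. Knockout replicate 2 (red triangle) is highest for the macrophage, neutrophil, B cell and dendritic cell lists and lowest for T cell and Treg markers; endothelial, stromal and erythroid sums are highest in wild-type replicate 3 (blue square).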

How the data were processed

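RNA of 3 Mbd2 knockout and 3 wild-type samples was hybridised to single-colour arrays. The deposited table holds log2 expression values, which the authors made with RMA per the submitters' processing notes. The software and which arrays were processed jointly are not stated there. Array values give no depth, and the number of arrays limits the precision.

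Of 22690 probe sets, 64 controls were left out. Symbols came from the platform annotation, updated by gene ID through RefSeq (GRCm38.p6), and 20380 probe sets had 1 symbol. Each gene was read from its probe set with the highest mean over the 6 arrays. The 40% of probe sets with the lowest means (under 5.18) were left out, leaving 13576. On these, R 4.3.3 and its package limma 3.58.1 ran lmFit and eBayes with genotype as the sole term. P-values were adjusted over all of them by Benjamini-Hochberg, with a threshold of 0.05. Where a wild-type mean lay under 5.18, a fold is a lower bound with wild-type arrays raised to 5.18. The fit was tested on simulated data. Summed levels add the linear values of a list's genes, one probe set a gene.

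The members, the 6 pathway lists and the 7 marker lists (172 of 193 symbols on the array, members included) were chosen with earlier results of these data known. Named were all members, Mbd2, Foxp3, up to 6 called genes a list filled to 3 by smallest p with 5 arrays, and 8 genes most like C1q. Alternatives were other filters, variance models, weights, normalizations, thresholds, a replicate block and arrays left out. Figures used matplotlib 3.10.9.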

Additional observations from a re-analysis of the deposited data

How the results depend on the processing

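The difference was positive for all 10 genes under all 14 alternatives to the 5-array fit, and for 9 under all 16 alternatives to the 6-array fit. The exception, Vsig4, was at -0.13 with 6 arrays. It ran from -0.27 to 0.076 when each array was left out, the highest being without wild-type replicate 3, and was at 0.03 without that array and knockout replicate 2. With 6 arrays, 10 of the 8190 genes kept by the filter passed the threshold, and 0 of the 10 macrophage genes. Gene totals below pool both directions and, unless said to be without a filter, are out of those 8190. Counts of macrophage genes out of 10 come from fits without a filter. For array weights, the replicate block and the looser threshold, the share of all genes in those unfiltered fits is not given. All genes passing were 5 of 12393 without a filter and 6 after quantile normalization again, with 0 macrophage genes in both. Array quality weights gave 1417 genes, with 7 of the 8 filtered macrophage genes, but 3 of 10 without a filter. Without wild-type replicate 3 and knockout replicate 2 there were 1645 genes, with 7 of 8 and 8 of 10. Leaving out each array in turn gave 0 to 129 genes, with 0 macrophage genes each time.

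With 5 arrays, 129 genes and 0 macrophage genes passed. Array quality weights gave 2424 genes, with 7 of 8 and 8 of 10 macrophage genes. The replicate block gave 378 genes, with 7 of 8 with the filter and 1 of 10 without. In that fit knockout replicate 3 had no wild-type array of its number, so the block absorbed it and the difference rested on replicates 1 and 2. Vcam1, for example, was at 3.60 there, the same as when knockout replicate 3 was left out. With 6 arrays the replicate block gave 7 genes and 0 macrophage genes. The labels link same-numbered samples by that number alone, and the series' design text calls the samples independent. Deviations from the group means of same-numbered samples correlated at 0.15, -0.0919 and -0.141 over probe sets. Those means include wild-type replicate 3, with its other distribution, and knockout replicate 2. The correlations therefore cannot decide whether samples were paired. At an adjusted p under 0.1 there were 509 genes, with 4 of 8 and 3 of 10. Leaving out each array in turn gave 10 to 1645 genes, with 0 to 7 of 8 and 0 to 8 of 10 macrophage genes, and the highest counts were those without knockout replicate 2. Where a wild-type array was left out, the lone wild-type array was assumed to vary like the knockout arrays. The cause of these moves was not tested. Values under 5.18 have no detection call, which limits C1qa, C1qb, C1qc, Slc40a1, Vcam1 and Cd163 in wild type and Vsig4 in both genotypes.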
